A study of Sus scrofa with 12 samples.

Results

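The 159 small RNAs described here are predicted microRNAs that were counted in every one of 12 small RNA libraries from pig small intestine. They were chosen by a single rule, a listed count of 1 or more in all 12 libraries, out of 1342 predicted microRNAs and 5850 small RNA ids in all. The listing itself therefore chose them, and it favours ids that are high and steady, so their levels and their spread are given as a description with no test. Predicted ids were listed only from a count of 10 upwards in each library, whereas known microRNAs were listed from a count of 1. A count of at least 10 in all 12 libraries picked the same 159 ids.

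MicroRNAs are short RNAs cut from a hairpin precursor that, loaded on an Argonaute protein, lower the output of messenger RNAs with a matching site. A predicted microRNA is a read cluster whose surrounding genome sequence can fold into such a hairpin and that carries no name yet in a microRNA catalogue, so a prediction can also pick up fragments of other RNAs. Weaning moves the young gut from milk to solid feed and is known for a passing loss of villus height and of barrier function. The ids come without a sequence, hairpin arm or genome position (not given in the sources used here), so no seed, host gene or role can be stated for any of them, and ids of near-identical sequence may share or split reads, which makes single values uncertain.

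The pigs were Large White ("Big white" in the labels), and the comparison asks how weaning alters small RNA in the gut. All libraries were from piglets past 21 days of age, with 3 libraries in each of 4 groups: piglets still on the sow (H-N-1, H-N-3 and H-N-5) and piglets weaned for 1 day (H-N-2, H-N-4 and H-N-6), 3 days (H-N-14, H-N-16 and H-N-18) or 7 days (H-N-26, H-N-28 and H-N-30). Values by library are given below in that order. The labels do not state whether each library is a different animal, nor the gut segment, sex or litter. Each p-value here therefore measures spread from library to library. By these labels, piglets weaned for longer were also older. For the piglets still on the sow, no age is given beyond being past 21 days. Age and weaning thus cannot be separated in the comparisons with feeding either, and the part of age was not tested. In such bulk samples fewer cells of a type and less RNA per cell cannot be told apart.

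Named small RNAs took 10453953 to 21031457 counts per library, and reads filed only under exons, introns or intergenic sequence took 19.96% to 43.2% of all counts in 11 libraries and 62.2% in H-N-26, a library of the 7-day group. Levels are given as normalised CPM, the counts of a small RNA scaled to 1e6 counts on named small RNAs after TMM scaling. H-N-26 stood apart from the other 11 libraries in the predicted microRNAs, and each group result that rests on it is given with and without it. Of 9 gut epithelium microRNA names looked up, 5 were matched, and all 5 were counted in every library.

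The predicted microRNAs were a small and very uneven class. Their mean level over the 12 libraries was 1000 CPM or more for 4 members, 100 to 1000 CPM for 11, 10 to 100 CPM for 51 and under 10 CPM for 93 (58.5%). The median of the 159 means was 7.87 CPM and the lowest was 0.973 CPM, in novel_mir869. Only 47 members had 100 or more counts in every library. The 4 highest were novel_mir1, novel_mir2, novel_mir139 and novel_mir4, followed by novel_mir3, novel_mir7, novel_mir5, novel_mir6, novel_mir8 and novel_mir1513. The places of novel_mir2 and novel_mir4 rested on H-N-26: over the other 11 libraries their means were 736 and 437 CPM. Those of novel_mir1 and novel_mir139 were 6143 and 2678 CPM.

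**Figure D1:**
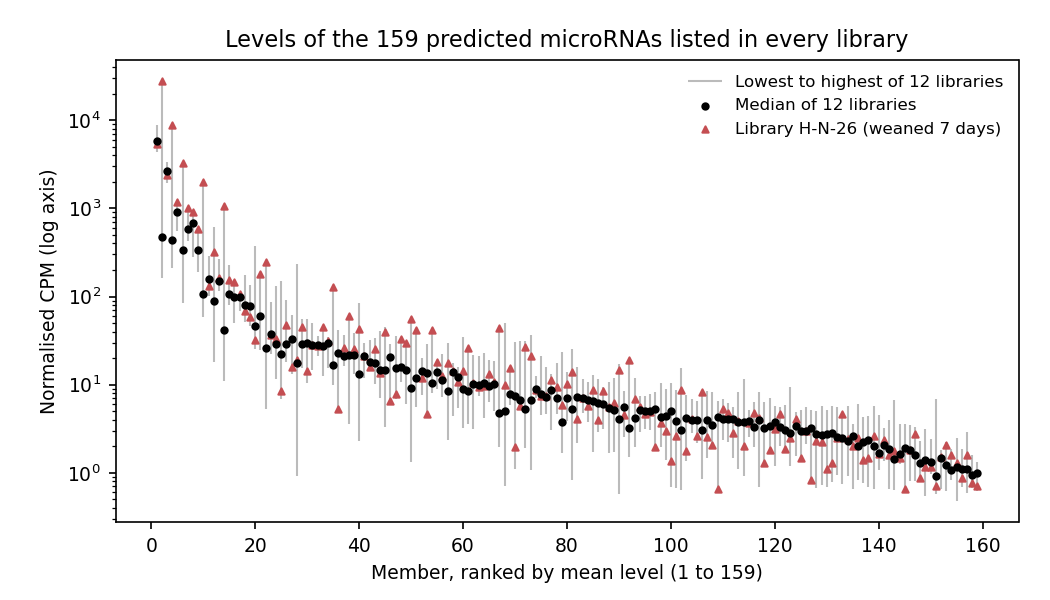
Each position on the horizontal axis is 1 of the 159 predicted microRNAs, ranked by mean level, and the vertical axis is normalised CPM on a log axis. Grey lines run from the lowest to the highest of 12 libraries, black points are medians and red triangles mark H-N-26; most members lie under 10 CPM, and the triangles of several top members lie far above their medians.

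At the edge of the rule, 12 members had a lowest count of exactly 10. Among these the 3 with the fewest counts in all were novel_mir461, novel_mir577 and novel_mir1241, with mean levels of 1.16, 1.17 and 1.23 CPM. Just outside, 57 predicted microRNAs were listed in 11 of the 12 libraries and 381 in a single library. The 3 of those 57 with the most counts were novel_mir576, novel_mir251 and novel_mir1147. The first had 24180 counts in H-N-26 and 1118 in H-N-14, between 10 and 82 in the 9 other libraries that listed it, and was missing from H-N-5.

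Although they were 22.7% to 41.8% of the predicted ids listed in a library, the 159 members held 95.7% to 97.8% of its predicted-microRNA counts. Their share of all counts on named small RNAs lay between 1.14% and 1.78% in 11 libraries. It was 9.38% in H-N-26. Leaving out novel_mir2, novel_mir4 and novel_mir7, which were chosen for this step after their values were seen, the members' share was 2.87% in H-N-26 and 1.00% to 1.62% in the other 11 libraries.

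Within the members' counts a handful of ids dominated. The highest single member held 25.8% to 48.3% of a library's member counts, the 10 highest of that library held 78.8% to 93.4%, and 8 to 22 members were enough to reach 90%. In 11 libraries the first place went to novel_mir1. In H-N-26 it went to novel_mir2 with 48.3%, followed by novel_mir4 with 15.3%, and novel_mir1 held 9.28% of the member counts. The order of the 159 members was otherwise much alike between libraries, with a Spearman rho over members of 0.70 to 0.93 in the 66 pairs of libraries (median 0.84), and a median of 0.83 for the pairs with H-N-26. These coefficients are across ids, which are not independent replicates.

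**Figure D2:**
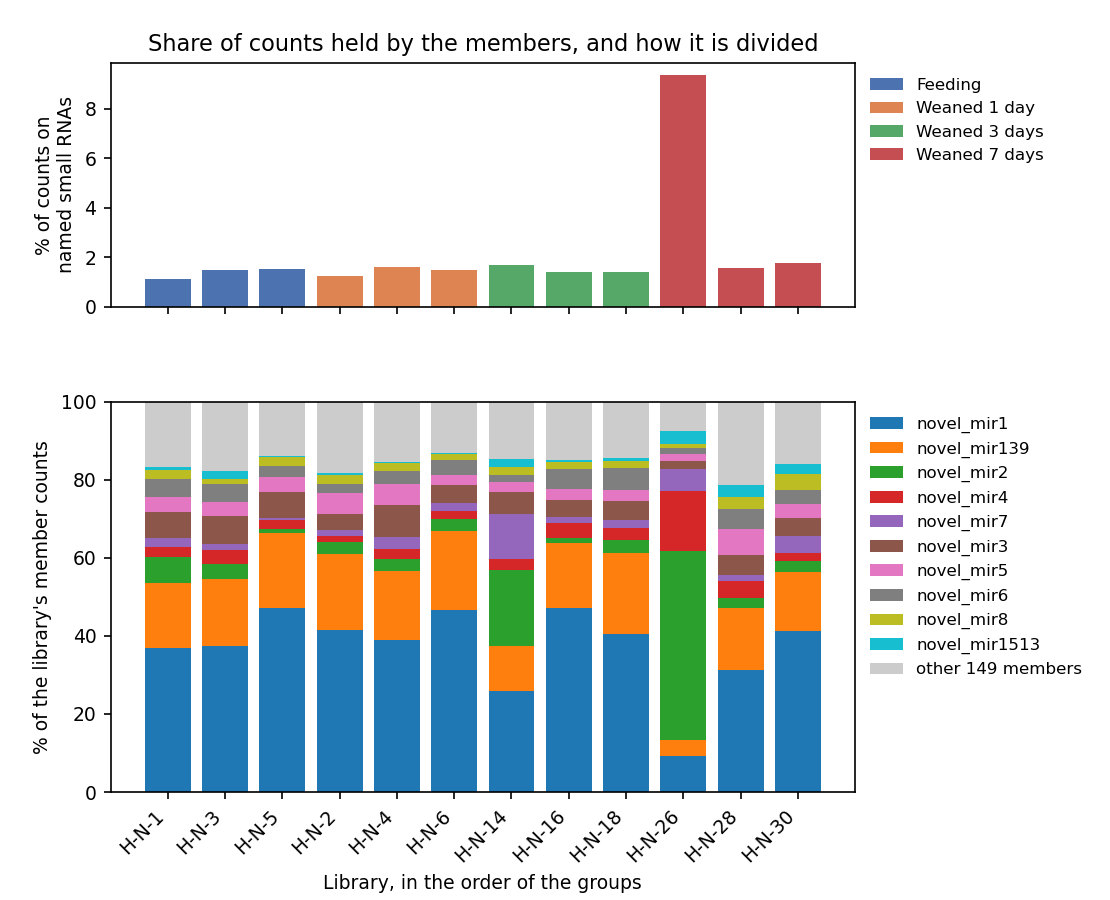
The upper bars give the percent of each library's counts on named small RNAs that the 159 members held, and the lower bars divide those member counts among 10 members and the other 149. There are 11 libraries with a share between 1.14% and 1.78%, H-N-26 has 9.38%, and there the band of novel_mir2 takes the place of novel_mir1 as the widest.

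The most abundant member kept a narrow range. By library, novel_mir1 was at 5744, 5841 and 7196 CPM in feeding, 5626, 5925 and 7826 after 1 day, 4491, 8872 and 6306 after 3 days, and 5352, 4412 and 5329.6 after 7 days. The highest and lowest libraries, both outside the feeding group, differed 2.01-fold, and the 7-day libraries all lay under the 3 feeding and the 3 1-day libraries. Against feeding, the 7-day log2 difference was -0.32 ± 0.29 (SE, edgeR adjusted p = 0.753), and it turned to 0.31 when only library totals were used for scaling.

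The third-ranked member moved with the first. Levels of novel_mir139 were 2607, 2639 and 2949.7 CPM in feeding, 2651, 2699 and 3376 after 1 day, 2027, 3133 and 3205 after 3 days, and 2376, 2230.2 and 1937 after 7 days. As with novel_mir1, all 3 of its 7-day libraries lay under all feeding and all 1-day libraries, by a log2 difference from feeding of -0.33 ± 0.27 (SE, edgeR adjusted p = 0.687) that became 0.30 with library totals only. The ratio of the counts of novel_mir1 to those of novel_mir139 stayed between 1.97 and 2.83 in the 12 libraries (median 2.21). Its SD was 0.16 on the log2 scale, the smallest of the 1081 pairs that can be formed from the 47 members with 100 or more counts in every library, where the median pair had 0.82. As the smallest of many pairs this was picked for its value and is a description.

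A second kind of abundant member was highly variable. The levels of novel_mir2 were 1057, 610.5 and 163 CPM in feeding, 413, 469.7 and 484 after 1 day, 3403, 206 and 513 after 3 days, and 27884, 392 and 385 after 7 days. H-N-26 was 8.19-fold above the next library, H-N-14 of the 3-day group, while the 2 other 7-day libraries lay within the range of feeding. The log2 difference at 7 days from feeding was 3.97 ± 1.60 (SE, edgeR adjusted p = 0.470) and was -0.65 without H-N-26.

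A similar picture held for novel_mir4, at 397, 556 and 363 CPM in feeding, 213, 387 and 355 after 1 day, 472, 731 and 507 after 3 days, and 8826, 582 and 249 after 7 days. H-N-26 was 12.1-fold above the next library, and the other 11 libraries spanned 213 to 731 CPM. Its 7-day log2 difference from feeding went from 2.88 ± 1.02 (SE, edgeR adjusted p = 0.470) to -0.08 when H-N-26 was left out.

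In novel_mir7 a pair of libraries stood high. It was at 358, 234 and 84.0 CPM in feeding, 219, 474 and 356 after 1 day, 1989, 311 and 292 after 3 days, and 3294, 244 and 556 after 7 days. The high values were those of H-N-14 and H-N-26, and the other 10 libraries of the 4 groups overlapped.

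Among the 10 highest, novel_mir3, novel_mir5, novel_mir6 and novel_mir8 were steadier. Over the 12 libraries novel_mir3 averaged 906 ± 227 CPM (SD, n = 12), novel_mir5 635 ± 198, novel_mir6 626 ± 225 and novel_mir8 359 ± 110.4, and their highest library was 2.23-fold to 3.36-fold above their lowest. Of these, novel_mir8 had 7-day libraries that did not overlap the others, at 373, 192 and 317 CPM in feeding, 298, 324 and 239 after 1 day, 370.0, 353 and 302 after 3 days, and 582, 434 and 520.1 after 7 days. Its log2 difference at 7 days from feeding was 0.80 ± 0.33 (SE, edgeR adjusted p = 0.470, unadjusted p = 0.0339) and 0.70 without H-N-26.

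Spread between libraries differed widely over the members. The SD of log2(CPM + 1) over the 12 libraries had a median of 0.53, and 70 members had less than a 4-fold range, while 36 had more than a 10-fold range. The 5 smallest SDs were those of novel_mir646 (0.17), novel_mir869 (0.19), novel_mir13, novel_mir55 and novel_mir901 (0.20 each). Of these, novel_mir646 and novel_mir869 lie near 1 CPM, where the added 1 holds the SD down, while novel_mir13 was at 69.3 to 111 CPM and novel_mir901 at 21.2 to 35.9 CPM. The 5 largest SDs belonged to novel_mir2 (2.003), novel_mir17 (1.82), novel_mir603 (1.66), novel_mir10 (1.60) and novel_mir1362 (1.59). An SD above 1 was reached by 22 members, and by 18 without H-N-26.

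High spread did not come from a single library in every case. Values of novel_mir1362 were 146, 613 and 28.7 CPM in feeding, 223, 50.4 and 18.04 after 1 day, 126, 52.4 and 39.0 after 3 days, and 318, 274 and 35.1 after 7 days. Every group had a wide range and all 4 overlapped. By contrast novel_mir603 reached 233 CPM in H-N-14, against 0.909 to 20.9 CPM in the other 11 libraries. For novel_mir17 the high libraries were H-N-26 (247 CPM), H-N-14 (170.2 CPM) and H-N-1 (122 CPM), and the other 9 lay between 5.28 and 47.8 CPM.

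**Figure D3:**
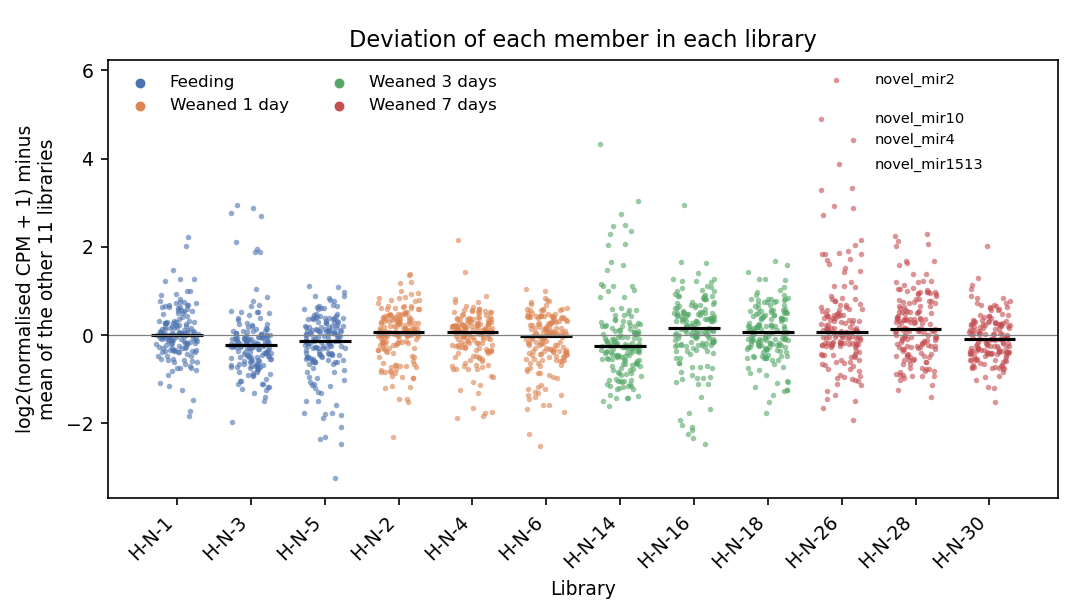
Each point is 1 of the 159 members in 1 library, and the vertical axis is its log2(normalised CPM + 1) minus the mean of the other 11 libraries; black bars are medians over members. The medians lie close to 0 in every library, and the 4 named points of H-N-26 lie 3.87 to 5.79 above 0.

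In H-N-26, 11 members lay more than 2 log2 units above the mean of the other 11 libraries and 0 lay more than 2 units below. The next highest numbers above were 9 in H-N-14 and 5 each in H-N-3 and H-N-28. The deviations of the 159 members had an SD of 1.16 in H-N-26, and of 0.51 to 0.93 in the other libraries. The farthest above were novel_mir2 (5.79), novel_mir10 (4.90), novel_mir4 (4.41), novel_mir1513 (3.87) and novel_mir17 (3.33). The farthest below were novel_mir1009 (-1.92), novel_mir1313 (-1.64), novel_mir311 (-1.50), novel_mir896 (-1.45) and novel_mir30 (-1.36). H-N-26 was the highest library for 22 members (13.8%) and the lowest for 8, while H-N-28 was the highest for 28, H-N-16 the highest for 26 and H-N-14 the lowest for 28. In H-N-26, 5 members were more than 4-fold above every other library, against 2 in H-N-14, 1 in H-N-1 and 0 in the other 9 libraries.

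Known microRNAs stood on the other side in the same library. Of 291 known microRNAs counted in all 12 libraries, H-N-26 was the lowest for 124 (42.6%) and the highest for 7, and 29 were more than 4-fold below every other library. Predicted piRNAs, another class of small RNA in the lists, went both ways. Of 229 counted in all 12 libraries, H-N-26 was the highest for 53 (23.1%) and the lowest for 45 (19.7%). In that class 11 were more than 4-fold above every other library and 12 more than 4-fold below. High values in H-N-26 were thus not particular to the predicted microRNAs. All values in H-N-26 come with the lowest named count and with the largest share of counts outside named small RNAs, and the part of these in its member values was not tested.

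The share of counts held by the members did not pass a test between groups. It averaged 2.40% ± 2.62 (SD, n = 9) in the weaned libraries and 1.38% ± 0.213 (SD, n = 3) in feeding (exact permutation test, two-sided, p = 0.200). Without H-N-26 the weaned mean was 1.53% ± 0.175 (SD, n = 8, exact permutation p = 0.267). At 7 days it was 4.25% ± 4.45 (SD, n = 3), where the exact permutation p of 0.1 is the smallest that 3 libraries against 3 allow. Without H-N-26 the 7-day mean was 1.68% ± 0.148 (SD, n = 2), and the difference from feeding went from 2.87 to 0.298 percentage points (exact permutation p = 0.2). The 2 remaining 7-day libraries, at 1.57% and 1.78%, still lay above the 3 feeding libraries, at 1.14% to 1.52%. With 2 libraries against 3 there are too few relabelings for this test to pass, so its p does not decide whether a difference remained. The part of the member counts in each library's 10 highest members was close between groups, at 85.6% ± 3.94 (SD) in weaned and 85.7% ± 1.65 in feeding libraries (exact permutation p = 0.955). Adjusted over the 14 share tests by the Benjamini-Hochberg method, these p-values lay between 0.7 and 1.

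Single members were tested between groups with edgeR's quasi-likelihood test over all 2453 small RNAs that passed the filter on low counts, which all 159 members did. No member passed an adjusted p of 0.05 in any of the 6 pairs of groups, in all weaned libraries against feeding or among the 4 groups. The share of all tested small RNAs that passed was 0% in 7 of these comparisons and 0.0408% at 7 days against feeding. With DESeq2, 0 members were called at 1 day, 2 at 3 days and 1 at 7 days against feeding. Of all small RNAs tested it called 0.856%, 1.26% and 1.71% there. DESeq2 called 0 members for 3 days against 1 day, 3 for 7 days against 1 day and 0 for 7 days against 3 days. The shares of all small RNAs there were 1.18%, 2.32% and 0.734%. For all weaned libraries it called 0 members and among the groups 4, against 1.10% and 1.67% of all small RNAs. DESeq2 gave novel_mir2 and novel_mir10 no adjusted p at 1 or 3 days against feeding. Nor did it in the pairs of weaned groups or for all weaned libraries, so its counts there could not include these members. Limma with voom called 0 members throughout. An edgeR fit of only the 898 ids listed in all 12 libraries, added after seeing the data, called 0 members as well. Because the rule keeps ids counted in every library, a predicted microRNA that was missing in a group could not be among them.

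At 1 day against feeding, 2 members (1.26%) had an unadjusted edgeR p under 0.05, against 3.02% of all small RNAs tested. All 1-day libraries lay above feeding in 11 members (6.92%) and below in 2 (1.26%), against 5.5% and 2.32% of all small RNAs. The 2 of smallest p were novel_mir311 and novel_mir199, both lower at 1 day. The levels of novel_mir311 were 34.2, 151 and 6.94 CPM in feeding and 13.7, 9.66 and 9.64 CPM after 1 day, so that the groups overlapped through H-N-5, with a log2 difference of -2.54 ± 1.07 (SE, edgeR adjusted p = 0.847). For novel_mir199 they were 11.2, 32.1 and 1.67 CPM in feeding and 1.32, 2.32 and 3.64 CPM after 1 day, again overlapping, with -2.62 ± 1.10 (SE, edgeR adjusted p = 0.847). The 3 members next in p were novel_mir783, novel_mir404 and novel_mir329, with log2 differences of 0.68, -2.18 and -0.72. H-N-3 was the highest feeding library for novel_mir311, novel_mir199 and novel_mir404, and without it the differences were -0.92, -1.41 and -0.50. The summed level of 3 red blood cell microRNAs was 3067 to 4242 CPM after 1 day and 1346 to 2844 CPM in feeding, and that of 4 leukocyte microRNAs was 7575 to 9780.1 CPM against 4719 to 7470 CPM. A smooth muscle list of 5 reached 204970 CPM in the highest 1-day library, with 34520 CPM in the lowest and 33075 to 42515 CPM in feeding. The 5 matched gut epithelium microRNAs summed to 135540 to 238550 CPM after 1 day and to 226760 to 486970 CPM in feeding. The part of these lists in the 1-day differences was not tested.

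At 3 days against feeding, 5 members (3.14%) had an unadjusted edgeR p under 0.05, against 5.91% of all small RNAs. All 3-day libraries lay above feeding in 11 members (6.92%) and below in 6 (3.77%), against 3.91% and 2.85% of all small RNAs. Smallest in p was novel_mir1442, at 44.7, 25.5 and 29.5 CPM in feeding and 109, 379 and 64.5 CPM after 3 days. All 3 libraries at 3 days lay above all feeding libraries, with H-N-16 highest. The log2 difference was 2.47 ± 0.65 (SE, edgeR adjusted p = 0.565) and was 1.38 without H-N-16; DESeq2 gave an adjusted p of 0.0126, and over all alternatives the adjusted p ran from 0.0126 to 0.996.

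The second was novel_mir11, at 285, 182 and 215 CPM in feeding and 101, 125 and 103 CPM after 3 days. The groups did not overlap, and the log2 difference was -1.05 ± 0.32 (SE, edgeR adjusted p = 0.565), with a DESeq2 adjusted p of 0.0107 and a range over all alternatives of 0.0107 to 0.996. Its 1-day libraries, at 166, 178 and 215 CPM, overlapped feeding, and its 7-day libraries, at 132, 128 and 147 CPM, lay under the feeding libraries and above those at 3 days. The 7-day difference of -0.74 shrank to -0.08 with library totals only.

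The others at 3 days were novel_mir556, novel_mir896 and novel_mir783. For novel_mir556, 87.7, 32.0 and 57.9 CPM in feeding stood against 35.9, 22.2 and 22.8 CPM after 3 days, and the groups overlapped. For novel_mir896, 5.45, 1.12 and 1.87 CPM in feeding stood against 9.24, 14.8 and 17.4 CPM after 3 days, without overlap, with a log2 difference of 2.30 ± 0.95 (SE, edgeR adjusted p = 0.565). The matched gut epithelium microRNAs summed to 275690 to 335260 CPM after 3 days, within the 226760 to 486970 CPM of feeding. The leukocyte list was at 2492 to 6170 CPM against 4719 to 7470 CPM, and the other lists overlapped feeding as well. The part of these lists in the 3-day differences was not tested.

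Through all days of weaning, novel_mir783 was the single member whose 9 weaned libraries all lay above the 3 feeding libraries, against 0.285% of all small RNAs tested. It was at 72.3, 54.0 and 49.6 CPM in feeding, 74.5, 109.6 and 97.4 after 1 day, 94.7, 117 and 99.9 after 3 days, and 145, 148 and 112 after 7 days. The group means were 58.6 ± 12.1, 93.8 ± 17.8, 104 ± 11.9 and 135 ± 19.9 CPM (SD, n = 3 each), and the gap between the highest feeding and the lowest 1-day library was small. Against feeding the log2 differences were 0.68 ± 0.34 at 1 day, 0.83 ± 0.34 at 3 days and 1.20 ± 0.35 at 7 days (SE). None passed with edgeR (adjusted p = 0.847, 0.565 and 0.470), and the unadjusted p at 7 days was 0.00504.

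Its 7-day difference was 1.15 without H-N-26 and lay between 1.03 and 1.36 when any single library was left out. DESeq2 gave an adjusted p of 0.0138 at 7 days and limma with voom 0.186, and the alternatives ran from 0.0138 to 0.575. For all weaned libraries against feeding the log2 difference was 0.90 ± 0.30 (SE, edgeR adjusted p = 0.882). These comparisons share the 3 feeding libraries, and the member was singled out here because its libraries did not overlap.

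On the lower side, novel_mir329 was the single member whose 9 weaned libraries all lay under feeding, against 0.367% of all small RNAs. Its levels were 34.9, 50.2 and 30.004 CPM in feeding, 14.9, 27.8 and 27.4 after 1 day, 25.5, 27.0 and 26.5 after 3 days, and 28.4, 29.9 and 28.7 after 7 days. The lowest feeding library, H-N-5, was barely above the highest 7-day library, and the feeding libraries varied most. The log2 differences from feeding were -0.72, -0.54 and -0.40 at 1, 3 and 7 days (edgeR adjusted p = 0.847, 0.731 and 0.801), and with library totals only the 7-day value was 0.21.

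**Figure D4:**
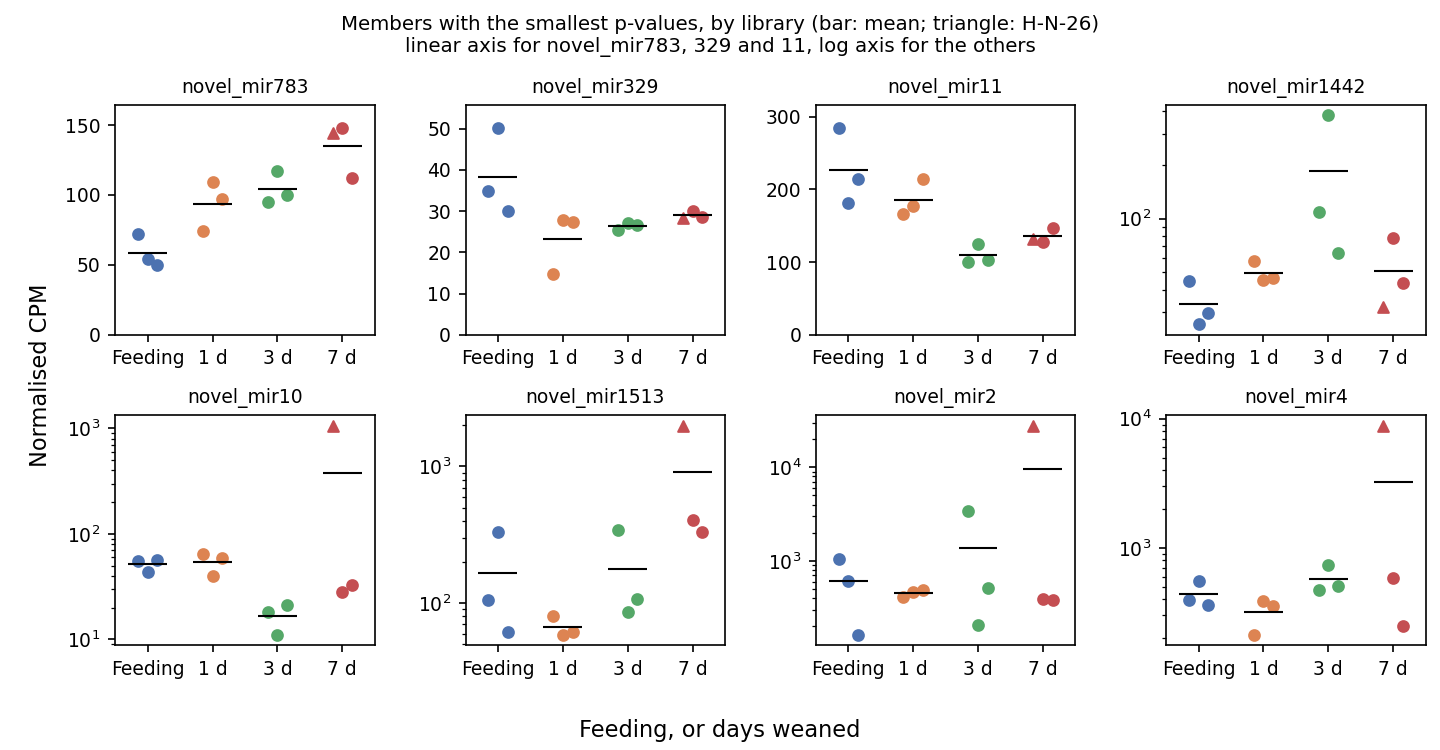
Normalised CPM of 8 members in the 12 libraries by group, with bars at group means; the axis is linear for novel_mir783, novel_mir329 and novel_mir11 and log for the others, and triangles mark H-N-26. The weaned points of novel_mir783 all lie above feeding and those of novel_mir329 all lie below, while novel_mir2, novel_mir4 and novel_mir10 are far higher in H-N-26 than in the 2 other 7-day libraries.

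At 7 days against feeding, 14 members (8.81%) had an unadjusted edgeR p under 0.05, 12 higher (7.55%) and 2 lower (1.26%). Of all small RNAs 9.91% did, 7.22% higher and 2.69% lower. All 7-day libraries lay above feeding in 16 members (10.1%) and below in 11 (6.92%), against 8.68% and 4.53% of all small RNAs. The median log2 difference was 0.17 over the members and 0.32 over all small RNAs tested. Without H-N-3 of the feeding group these medians were -0.03 and 0.71, the latter over the different set of 3041 small RNAs that passed the filter in that fit. Scaling moved this comparison as a whole: with library totals only the median of all small RNAs was 0.92. In that scaling 34 members (21.4%) were higher and 0 lower at an unadjusted edgeR p under 0.05, and 14.8% of all small RNAs tested had such a p.

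Without H-N-26 the 7-day comparison looked different. In that fit 8 members (5.03%) had an unadjusted edgeR p under 0.05, 5 higher and 3 lower, against 4.77% of all small RNAs tested. There 21 members changed sign and 11 moved by more than 1 log2 unit, all of them downward. The differences of novel_mir2, novel_mir4 and novel_mir10 went from 3.97, 2.88 and 2.86 to -0.65, -0.08 and -0.77. That of novel_mir7 went from 2.60 to 0.82. The summed level of the 5 matched gut epithelium microRNAs ran from 55588 to 101690 CPM in the 7-day libraries, lowest in H-N-26, and from 226760 to 486970 CPM in feeding. That of 3 neuron microRNAs ran from 636 to 760 CPM at 7 days and from 986 to 1248 CPM in feeding. The part of these lists in the members' differences was not tested.

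Other members kept the direction of their 7-day difference in that fit. The levels of novel_mir1513 were 105, 330.2 and 61.5 CPM in feeding, 80.3, 59.0 and 61.4 after 1 day, 345, 86.1 and 106 after 3 days, and 1985, 407 and 332 after 7 days. All 7-day libraries lay above all feeding and 1-day libraries, although H-N-3 of feeding was just under H-N-30 and H-N-14 of the 3-day group just above it. The log2 difference from feeding was 2.46 ± 0.85 (SE, edgeR adjusted p = 0.470) with all libraries and 1.16 without H-N-26.

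The level of novel_mir1513 went with the share of reads outside named small RNAs. Its 5 highest libraries, from 330.2 to 1985 CPM, were the 5 with the largest share of counts in exons, introns and intergenic sequence (32.2% to 62.2%). In the 7 other libraries it was at 59.0 to 106 CPM with a share of 19.96% to 27.2%. The same 5 libraries were the highest for novel_mir199, at 12.4 CPM or more against 11.2 CPM or less in the others, and for novel_mir404, at 7.42 CPM or more against 7.00 CPM or less; these 2 were picked for that order. For novel_mir1513 the libraries thus fell into separate sets on both measures, so no correlation over all 12 is given, and the part of this share in the differences of these 3 members between groups was not tested.

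**Figure D5:**
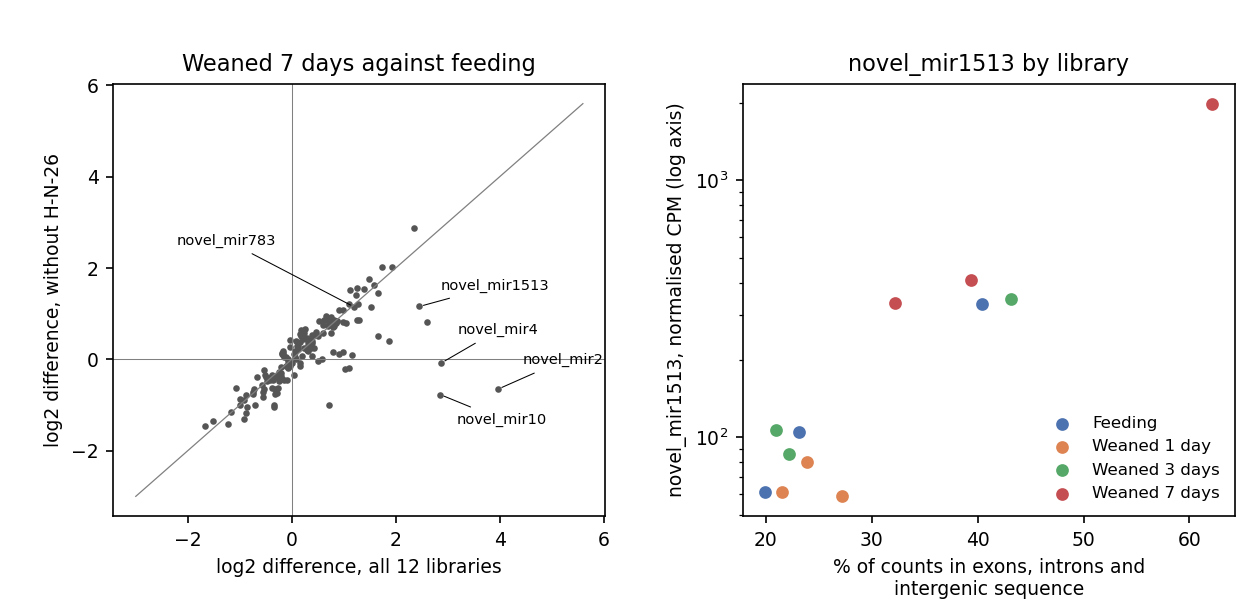
Left, each point is 1 of the 159 members, with its log2 difference between 7 days and feeding from all 12 libraries (horizontal) and without H-N-26 (vertical), and the line marks equal values; novel_mir2, novel_mir4 and novel_mir10 fall from 2.86 or more to under 0. Right, normalised CPM of novel_mir1513 (log axis) against the percent of counts in exons, introns and intergenic sequence in each library, where 5 libraries lie at 330.2 CPM or more and 7 at 106 CPM or less.

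Lower members with a 7-day difference included novel_mir1511, novel_mir33 and novel_mir32. For novel_mir1511, 1.95, 4.20 and 5.17 CPM in feeding stood against 0.824, 1.32 and 1.42 CPM after 7 days, with no overlap. Its log2 difference was -1.66 ± 0.64 (SE, edgeR adjusted p = 0.470) and -1.46 without H-N-26. For novel_mir33, 2.35, 6.10 and 7.85 CPM in feeding stood against 17.8, 29.9 and 14.5 CPM after 7 days, also with no overlap, and the log2 difference of 1.93 ± 0.75 (SE, edgeR adjusted p = 0.470) was 2.03 without H-N-26.

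Among the weaned groups, 3 days against 1 day gave 4 members (2.52%) with an unadjusted edgeR p under 0.05, against 4.81% of all small RNAs. The 3-day libraries all lay above the 1-day libraries in 8 members (5.03%) and below in 15 (9.43%). The shares of all small RNAs were 4.32% and 5.46%. Those of smallest p were novel_mir1442, novel_mir603 and novel_mir199, higher at 3 days, and novel_mir11, lower. The 3-day levels of novel_mir199 were 36.3, 4.33 and 7.15 CPM, all above the 1-day libraries, with a log2 difference of 2.71 ± 1.11 (SE, edgeR adjusted p = 0.578), which was 1.25 without H-N-14. The difference of novel_mir603 was 3.35 ± 1.31 (SE) with all libraries and 0.78 without H-N-14. The fifth in p, novel_mir40, had 50.7 CPM in H-N-14 and 0.700 and 12.5 CPM in the 2 other 3-day libraries, around the 3.90 to 5.03 CPM of the 1-day libraries.

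For 7 days against 1 day, 18 members (11.3%) had an unadjusted edgeR p under 0.05, against 10.1% of all small RNAs. All 7-day libraries lay above all 1-day libraries in 14 members (8.81%) and below in 24 (15.1%), novel_mir1 and novel_mir139 among the latter. The shares of all small RNAs were 10.8% and 9.25%. The smallest p was that of novel_mir1513, with a log2 difference of 3.76 ± 0.90 (SE, edgeR adjusted p = 0.441, unadjusted p = 0.00146). It was 2.47 without H-N-26, and DESeq2 gave an adjusted p of 0.000477. The alternatives ran from 5.7e-07 to 0.570. Also named by p were novel_mir4 (3.34, and 0.38 without H-N-26), novel_mir199 (3.60, and 2.78), novel_mir14 (1.41, and 1.03) and novel_mir775 (-1.55, and -1.52), each as a log2 difference.

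For novel_mir775 the 7-day difference was as large without H-N-26. This member was at 3.97, 3.48 and 5.07 CPM in feeding, 5.79, 6.03 and 4.44 after 1 day, 3.27, 7.57 and 7.47 after 3 days, and 1.76, 2.40 and 1.38 after 7 days. Its 7-day libraries lay under all other libraries, and the log2 difference from 3 days was -1.72 ± 0.58 (SE, edgeR adjusted p = 0.632).

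For 7 days against 3 days, 9 members (5.66%) had an unadjusted edgeR p under 0.05, against 7.38% of all small RNAs. The 7-day libraries all lay above the 3-day libraries in 8 members (5.03%) and below in 7 (4.4%). The shares of all small RNAs were 5.01% and 4.32%. Here too scaling mattered: with library totals only, 22 members (13.8%) were higher and 0 lower at an unadjusted edgeR p under 0.05. Of all small RNAs tested 10.5% had such a p. The smallest p was that of novel_mir10, at 54.9, 43.4 and 56.5 CPM in feeding, 64.5, 40.0 and 59.0 after 1 day, 18.1, 11.1 and 21.3 after 3 days, and 1059.6, 27.9 and 32.6 after 7 days. All 3-day libraries lay under all others, and H-N-26 was 16.4-fold above the next library. The log2 difference was 4.47 ± 1.21 (SE, edgeR adjusted p = 0.632) and 0.84 without H-N-26. For novel_mir32 the levels were 10.8, 7.82 and 9.30 CPM after 3 days and 41.7, 16.8 and 23.9 CPM after 7 days, without overlap, and the log2 difference of 1.56 ± 0.53 (SE, edgeR adjusted p = 0.632) was 1.13 without H-N-26. The other 2 of the 5 smallest in p were novel_mir1442, at -1.85 (-0.78 without H-N-16), and novel_mir1513, at 2.34 (1.05 without H-N-26).

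For all weaned libraries against feeding, 4 members (2.52%) had an unadjusted edgeR p under 0.05, against 4.77% of all small RNAs. Among the 4 groups 9 members (5.66%) did, against 7.13% of all small RNAs. The 4 of all weaned libraries against feeding were novel_mir783, novel_mir1442 and novel_mir896, higher in weaned libraries, and novel_mir11, lower. Their log2 differences were 0.90, 1.22, 1.88 and -0.69. Over all members 106 were higher and 53 lower, with a median log2 difference of 0.21, against 0.12 over all small RNAs tested. That split rested on a feeding library: without H-N-3, 78 were higher and 81 lower, with a median of -0.01, against 0.57 over all small RNAs tested. The filter was run anew in that fit and kept 3041 small RNAs, so its median over all of them covers a different set. That median was also higher without H-N-1 (0.36) or without H-N-5 (0.39). With library totals only, 133 were higher and 26 lower, with a median of 0.44, against 0.34 over all small RNAs tested.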

How the data were processed

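Small RNA was sequenced from pig small intestine in 12 libraries. Per the file headers, the authors deposited a count and a TPM value for each id a library lists. The deposited counts are whole numbers. The authors' TPM is the count scaled to 1e6 over that list without regard to length, to within 0.005. The submitters' processing notes give the genome build as Sscrofa 11.1. What was used for alignment, counting and microRNA prediction is not given in the sources used here. Groups came from the labels, which give no batch or pairing.

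The 3 totals for exons, introns and intergenic sequence were left out, since they belong to no small RNA. Counts of 8 names listed more than 1 time were summed. A missing id was entered as 0, although a missing predicted id may have had up to 9 counts.

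The counts were fitted in R 4.3.3 with edgeR 4.0.16 (filterByExpr at its minimum count of 10 and total of 15, TMM factors, 4 group means, quasi-likelihood test, two-sided), with Benjamini-Hochberg adjustment over all 2453 small RNAs tested in each contrast and a threshold of 0.05. The biological coefficient of variation was 129% in that fit and 62.0% in a fit of only the 898 ids listed in all libraries. Shares were compared by exact permutation (Python 3.11.15, SciPy 1.17.1), for which 3 libraries against 9 allow a smallest p of 0.00455. Alternatives were DESeq2 1.42.0, limma 3.58.1 with voom, other scalings, filters, groups, missing-value rules and denominators, and leaving out each library.

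Members named are the 10 highest by mean, the 5 of smallest p in each comparison, the 5 of largest and of smallest SD, the 5 farthest above and below in H-N-26, and 3 on each side of the rule. Members and lists were chosen with earlier results of these data known. Marker lists were summed as normalised CPM. Names matched were 5 of 5 for smooth muscle, 3 of 3 for red blood cells, 4 of 5 for leukocytes and 3 of 3 for neurons, and over the 12 libraries these lists ran from 30111 to 204970, 1346 to 4242, 2492 to 9780.1 and 636 to 1443. Precision was limited by 3 libraries a group, and PCR copies are not told apart.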

Additional observations from a re-analysis of the deposited data

Results flagged for a closer look

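In 4 of 12 values looked at over the 9 weaned libraries, 1 library lay apart from the rest by Dixon's criterion at the 95% level, and it was H-N-26 each time. Chance gives such a result in about 1 of 20 groups of normally distributed values, and the 9 libraries span 3 groups, so part of the range is between groups. H-N-26 was already known to stand apart when these values were looked at. In it novel_mir2 and novel_mir4 held 48.3% and 15.3% of the member counts, so the share and these levels are not independent. The number of flagged values is therefore a description. The members held 9.38% of its counts on named small RNAs, and the next weaned library had 1.78%. The level of novel_mir2 there was 27884 CPM, with 3403 CPM in the next library. For novel_mir4 it was 8826 CPM, with 731 CPM next. For novel_mir1513 it was 1985 CPM, with 407 CPM next.

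Outside the members, 2 predicted microRNAs that were missing from a single library had a level in H-N-26 above all feeding libraries. For novel_mir576 it was 1422 CPM, with 3.63 CPM in the highest feeding library. For novel_mir251 it was 299.0 CPM, with 10.2 CPM in the highest feeding library. The difference was not tested for either.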

How the results depend on the processing

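Of 204 values recomputed for the group comparisons under the alternatives, 189 stayed on the same side, 11 moved and 4 reversed. With all libraries and the edgeR test, 0 members were called in each comparison, and leaving out any single library gave 0 to 0. DESeq2 called 2 at 3 days and 1 at 7 days against feeding, 3 for 7 days against 1 day and 4 among the groups. It called 1.26%, 1.71%, 2.32% and 1.67% of all small RNAs tested in these comparisons, in that order. Without a filter on low counts edgeR called 1 for 3 days against 1 day, 2 at 3 days and 5 at 7 days against feeding. In that fit it also called 7 for 7 days against 1 day, 4 for 7 days against 3 days, 1 for all weaned libraries and 9 among the groups. Of all 5850 ids it called 0.803%, 0.957%, 2.50%, 2.55%, 2.17%, 0.701% and 4.67% in these comparisons, in that order. The cause was not tested. The weaned minus feeding difference in the share of the 10 highest members was -0.07 percentage points, and leaving out 1 library moved it between -1.05 and 0.86, above 0 without H-N-5 (0.859), H-N-2 (0.268), H-N-28 (0.776) or H-N-30 (0.122). The difference in the members' share of counts, 1.02 points, ran from 0.147 without H-N-26 to 1.17. Of 765 values for the 5 members of smallest p in each comparison, 748 kept direction and side, 15 passed the threshold where the result given in the text did not, and 2 reversed, both for novel_mir4 at 7 days against feeding. Outside these, the 7-day differences from feeding of novel_mir1, novel_mir139 and novel_mir329, among others, changed sign with library totals only. Without H-N-26, 21 members changed sign at 7 days, among them novel_mir2, novel_mir10 and novel_mir17 (from 1.10 to -0.19). With 1 library left out, the 7-day log2 difference of novel_mir4 from feeding ran from -0.0797 without H-N-26 to 3.39 without H-N-30. For novel_mir4 it was -0.19 when H-N-26 was left out of a fit of the ids listed in all 12 libraries. When 1 library was left out, members at an unadjusted p under 0.05 numbered 0 to 5 at 1 day, 3 to 9 at 3 days and 5 to 17 at 7 days against feeding, 1 to 7 for 3 days against 1 day, 4 to 21 for 7 days against 1 day, 5 to 13 for 7 days against 3 days, 2 to 8 for all weaned libraries and 5 to 12 among the groups. No paired analysis was possible because the labels give the libraries no shared replicate numbers.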

Other observations

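The second steadiest pair of abundant members was novel_mir13 with novel_mir24, whose counts had a ratio of 2.75 to 4.45 over the 12 libraries (median 3.54, SD of log2 0.20). The number of predicted microRNAs listed per library was 460 ± 87.9 (SD, n = 3) in feeding and 557 ± 94.5 (SD, n = 9) in weaned libraries (exact permutation test, two-sided, p = 0.145).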
